A study of Gallus gallus with 8 samples.

Results

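Integrins, laminins and the other proteins of the basement membrane and early cell matrix are described here as 50 genes of the 24356 in the count table, taken by gene name: integrin α and β chains (ITGA, ITGB), laminin chains (LAMA, LAMB, LAMC), nidogens, fibulins, syndecans, glypicans, link proteins (HAPLN), and FN1, AGRN, HSPG2, DAG1, VCAN, TNC and SPARC. Of these, 48 passed edgeR's filter on low counts, and GPC6 and ITGB7 did not. The rule names no measured value, but the genes were chosen with earlier results of these data known. Among chick genes in RefSeq (assembly GRCg7b), 57 symbols fit the rule and 49 of them matched a member by symbol. The other 8 were not analysed here.

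The groups were Lmx1aE1-EGFP+ cells, labelled as otic placode, and Sox3U3-EGFP+ cells, labelled as epibranchial placode, with 4 bulk RNAseq libraries each, made from 2000 sorted cells per library. Both came from chick embryos electroporated at somite stage (ss) 3 to 5 (to 6 in the methods) with a plasmid in which an enhancer, the otic Lmx1aE1 or the epibranchial Sox3U3, drives EGFP, and both were collected at ss18 to ss21. The enhancer defines each population, so that a group holds every cell type in which the plasmid was present and EGFP bright enough to sort, and the number of embryos behind a library is not given in the sources used here.

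The basement membrane is a thin sheet of matrix under epithelia. Laminin trimers of 1 α, 1 β and 1 γ chain form its first network, nidogen and the heparan sulfate proteoglycans perlecan and agrin bind to it, and cells hold on through integrins, which are pairs of an α and a β chain, and through dystroglycan. Fibronectin, tenascin-C and versican are matrix proteins found around neural crest and other migrating cells in the embryo. During ear formation the placode stays attached to its basement membrane while it folds into a vesicle.

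Library totals ranged from 6559872 to 24173945 counts in Lmx1aE1-EGFP and from 9388922 to 45183366 counts in Sox3U3-EGFP. The 4 deeper libraries were Lmx1aE1-EGFP 3 and 4 and Sox3U3-EGFP 1 and 2. Values below are CPM, counts scaled to a common library size with edgeR's TMM factors. They allow a gene to be compared between libraries but not with another gene, since gene length is not accounted for. Sums over marker lists add such values, so a gene's part in a sum depends on its length too. Checked against their labels, the Lmx1aE1-EGFP libraries were higher for 4 of 8 tested otic markers (SOX10, SOX8, LMX1A and DLX5) at an adjusted p under 0.05. Whether the SOX10 and SOX8 counts came from otic or from neural crest cells was not tested. PAX2 was lower (mean 34.5 CPM in Lmx1aE1-EGFP, against 85.6 CPM in Sox3U3-EGFP, log2 fold change -1.31). The study describes PAX2 in both cell populations while they separate, and also among the factors that segregate to the otic branch. SOHO-1 (log2 fold change 0.99, edgeR adjusted p = 0.0600), FBXO2 (-0.17) and GBX2 (-0.66) did not pass. All 3 tested epibranchial markers (SOX3, ISL1 and TLX1) were lower by the same rule. NEUROG1, which marks neurogenic placode cells, did not pass the filter. Markers of other cell types differed between the groups too. Of 9 neural crest markers, 6 were higher and 1 was lower, and their summed level was 751 to 841 CPM for the Lmx1aE1-EGFP libraries, against 243 to 327 CPM for the Sox3U3-EGFP libraries. Of 8 mesenchyme markers, 4 were higher without overlap (TWIST1, COL1A1, PDGFRA and PRRX1). The sums overlapped, at 1077 to 1248 CPM in Lmx1aE1-EGFP, against 839 to 1567 CPM in Sox3U3-EGFP. Most of the sums came from COL1A2 (mean 619 against 627 CPM) and LUM (222 against 222 CPM), which did not pass. All 8 genes of the epidermis list, which includes general epithelial genes such as EPCAM and CDH1, were lower. Their sums were 719 to 1069.7 CPM, against 3734 to 4809 CPM in the Sox3U3-EGFP libraries. Most of the sums came from CLDN1 (mean 472 CPM in Lmx1aE1-EGFP, against 2360 CPM in Sox3U3-EGFP) and EPCAM (156 against 722 CPM). TP63 averaged 4.93 against 20.5 CPM in the same order. Which epithelial cells gave these values was not tested. Of 6 pharyngeal endoderm markers, 3 were lower, with sums of 12.8 to 16.7 CPM, against 33.3 to 66.9 CPM in the Sox3U3-EGFP libraries. Of 8 heart muscle markers, 1 was higher (MYL4) and 3 were lower (TNNI1, TNNT2 and NKX2-5). The sums overlapped (258 to 297 CPM in Lmx1aE1-EGFP, against 134 to 294 CPM in Sox3U3-EGFP). MYL4, at a mean of 225 against 71.2 CPM, made up most of the Lmx1aE1-EGFP sums. Of 8 markers of endothelium and blood, 1, the endothelial receptor KDR, was lower, and of 4 tested neural tube markers none passed. No marker of these lists with a row in the count table, tested or not, was at 0 in all libraries. The part of these cells in the results below was not tested, and in bulk libraries more cells of a type and more RNA per cell cannot be told apart. Sox3U3-EGFP library 4 correlated least with the others of its group (mean r of 0.960, against at least 0.966 for the other 7 libraries).

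At an adjusted p under 0.05, 11 members were higher and 5 were lower in Lmx1aE1-EGFP+ cells, and 32 did not pass. Over all 16861 genes tested, 12.1% were higher and 11.3% were lower by the same rule, whereas the members' shares were 22.9% and 10.4%. The 11 that rose were SDC3, TNC, GPC4, ITGA4, ITGB3, HAPLN1, SDC2, GPC1, ITGB1, HSPG2 and VCAN, and the 5 that fell were LAMA4, ITGA2, FN1, SDC4 and LAMA5. The median log2 fold change was -0.05 over the 48 members and -0.05 over all genes tested. Its median size without sign was 0.34 over the members, against 0.37 over all genes. The median standard error was smaller, at 0.17 against 0.23. Its part in the share of members called was not tested. Only SDC3 was also past the study's fold threshold, a log2 fold change beyond 1.5, which 0.712% of all genes passed upward and 2.47% downward. With a log2 fold change beyond 1 as the limit, 5 members were higher (10.4%) and 2 lower (4.17%), against 2.82% and 5.33% of all genes. There were 16 members whose groups had no overlapping libraries, 10 higher (20.8%) and 6 lower (12.5%), against 13.7% and 12.3% of all genes tested. Without Sox3U3-EGFP library 4 the counts were 10 and 5, because VCAN was lost.

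**Figure D1:**
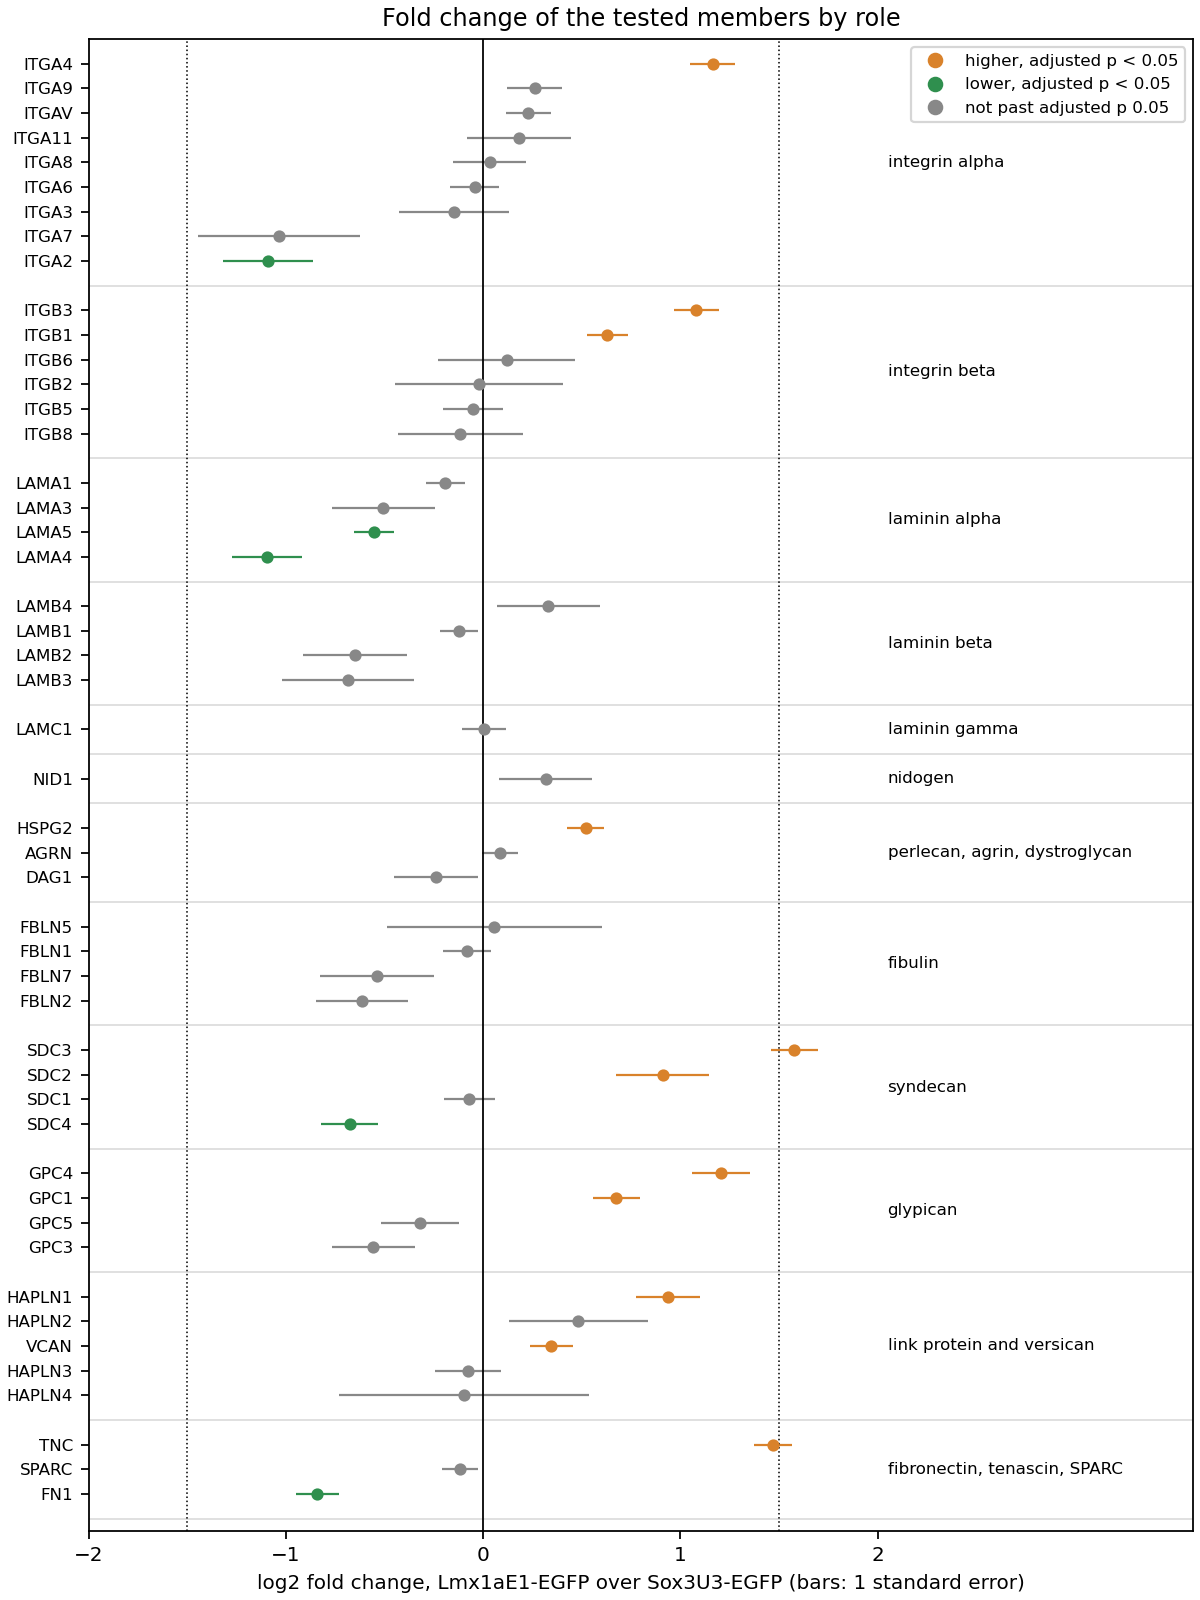
Fold change of the 48 tested members by role. The x axis is the log2 fold change of Lmx1aE1-EGFP over Sox3U3-EGFP with bars of 1 standard error (4 libraries a group), and dotted lines mark 1.5 in each direction. The 11 members higher in Lmx1aE1-EGFP (orange) are integrins, proteoglycans, a link protein and TNC. The 5 lower ones (green) are the laminin α chains LAMA4 and LAMA5, the integrin chain ITGA2, the syndecan SDC4 and FN1.

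Among 16 integrin chains, of which 15 were tested, 3 were higher and 1 was lower. ITGA4, the α4 chain that pairs with β1 and binds fibronectin and the cell adhesion protein VCAM1, had 153, 128, 131 and 127 CPM in Lmx1aE1-EGFP libraries 1 to 4, against 55.8, 70.4, 59.8 and 54.5 CPM in Sox3U3-EGFP libraries 1 to 4. Every Lmx1aE1-EGFP library lay well above every Sox3U3-EGFP library, and its log2 fold change was 1.16 (standard error 0.12, edgeR adjusted p = 2.67e-06). ITGB3, the β3 chain that pairs with αV and, in platelets, with αIIb, had 413, 380.4, 441 and 476 CPM in Lmx1aE1-EGFP, against 166, 224, 188 and 232 CPM in Sox3U3-EGFP. Its groups did not overlap either (log2 fold change 1.08, standard error 0.11, edgeR adjusted p = 5.24e-06). ITGB1, the common partner of most α chains, had 229, 229, 233 and 204 CPM in Lmx1aE1-EGFP, against 150.0, 146, 163 and 119.5 CPM in Sox3U3-EGFP. Its libraries were again separate, at a smaller log2 fold change of 0.63 (standard error 0.11, edgeR adjusted p = 0.000404).

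ITGA2 went the other way. This α2 chain, which with β1 is a receptor for collagen and in some cells for laminin, had 4.58, 6.21, 6.40 and 8.76 CPM in Lmx1aE1-EGFP, against 15.0, 13.8, 10.5 and 16.9 CPM in Sox3U3-EGFP. The highest Lmx1aE1-EGFP library stayed under the lowest Sox3U3-EGFP library (log2 fold change -1.09, standard error 0.23, edgeR adjusted p = 0.00226). ITGA7, a laminin receptor chain best known from muscle, had few counts, with 1.96, 0.303, 1.74 and 2.08 CPM in Lmx1aE1-EGFP, against 2.68, 4.43, 3.47 and 2.53 CPM in Sox3U3-EGFP. Although these libraries did not overlap, it missed the threshold (log2 fold change -1.03, standard error 0.41, edgeR adjusted p = 0.0810), and the Lmx1aE1-EGFP library with 0.303 CPM held 2 counts.

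Other α chains that pair with β3 or β1 did not pass the threshold. ITGAV, the αV partner of β3, averaged 65.5 ± 5.54 CPM in Lmx1aE1-EGFP, against 55.9 ± 3.41 CPM in Sox3U3-EGFP (SD, n = 4 each; log2 fold change 0.23, standard error 0.11, edgeR adjusted p = 0.163). ITGA9, which with β1 binds tenascin-C, averaged 114 ± 18.3 CPM and 95.4 ± 16.5 CPM in the same order (log2 fold change 0.26, standard error 0.14, edgeR adjusted p = 0.190). ITGA6, a main laminin receptor of epithelia, averaged 79.3 ± 11.2 CPM in Lmx1aE1-EGFP, against 81.8 ± 7.62 CPM in Sox3U3-EGFP (log2 fold change -0.04, standard error 0.12). For all 3 the groups overlapped. The other tested chains (ITGA3, ITGA8, ITGA11, ITGB2, ITGB5, ITGB6 and ITGB8) had log2 fold changes between -0.15 and 0.18, none past the threshold. ITGB7, a chain of leukocytes, had 0 counts in all Lmx1aE1-EGFP libraries, which allows up to 0.125 CPM in the deepest and 0.455 CPM in the shallowest of them (3 counts a library), and 18, 3, 0 and 0 counts in Sox3U3-EGFP. No fold is given for it.

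Of 9 laminin chains, all tested, none was higher and 2 were lower in Lmx1aE1-EGFP+ cells. LAMA4, an α chain best known from vessels and mesenchyme, had 14.1, 13.9, 13.0 and 14.8 CPM in Lmx1aE1-EGFP, against 28.1, 35.4, 21.1 and 34.6 CPM in Sox3U3-EGFP. The Lmx1aE1-EGFP libraries were close together and all under the Sox3U3-EGFP libraries, which spread more widely (log2 fold change -1.10, standard error 0.18, edgeR adjusted p = 0.000290). The endothelial marker KDR averaged 21.7 ± 10.4 CPM in Lmx1aE1-EGFP, against 55.1 ± 11.9 CPM in Sox3U3-EGFP (SD, n = 4 each). It was the only marker to pass of the 8 for endothelium and blood. The groups overlapped for the others, including PECAM1, TIE1 and CDH5 (log2 fold changes of -0.26, -0.37 and -1.12). Within Sox3U3-EGFP, KDR was highest in library 3 (67.8 CPM), where LAMA4 (21.1 CPM) and TIE1 (9.24 CPM) were lowest. KDR was lowest in library 1 (41.2 CPM), where LAMA4 was 28.1 CPM. CDH5 and PECAM1 were lowest in library 1 too (20.7 and 16.8 CPM). Both were highest in library 4 (48.5 and 36.2 CPM), where KDR was 61.4 CPM and LAMA4 34.6 CPM. Of the mesenchyme markers, COL1A2 and COL3A1 were lowest in library 3 (461 and 22.6 CPM). TWIST1 and COL1A1 were highest there (14.5 and 13.9 CPM). The part of endothelial or mesenchyme cells in the LAMA4 difference was not tested. LAMA5, an α chain of many epithelial basement membranes, had 101, 86.1, 90.7 and 95.4 CPM in Lmx1aE1-EGFP, against 129, 145, 143 and 129.7 CPM in Sox3U3-EGFP. These groups were separate as well, at a log2 fold change of -0.55 (standard error 0.10, edgeR adjusted p = 0.000795).

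The chains of laminin-111, the trimer of early embryonic basement membranes, were measured with small errors and did not pass the threshold. LAMA1 had 219.8, 211, 207 and 207 CPM in Lmx1aE1-EGFP, against 249, 258, 202 and 255 CPM in Sox3U3-EGFP, so that library 3 of Sox3U3-EGFP lay under all Lmx1aE1-EGFP libraries (log2 fold change -0.19, standard error 0.10, edgeR adjusted p = 0.171). LAMB1 averaged 801 ± 104 CPM in Lmx1aE1-EGFP, against 872 ± 64.1 CPM in Sox3U3-EGFP (log2 fold change -0.12, standard error 0.10). LAMC1, the only γ chain here, averaged 102 ± 5.60 CPM and 102 ± 12.9 CPM in the same order (SD, n = 4 each; log2 fold change 0.01, standard error 0.11). LAMA3, LAMB2 and LAMB3, which had lower counts, had log2 fold changes of -0.51, -0.65 and -0.69 with standard errors of 0.26 to 0.34. LAMB4, next to LAMB1 in the RefSeq gene order, had 0.33. None of these 4 passed, and whether reads were split between overlapping neighbours cannot be told from the table.

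**Figure D2:**
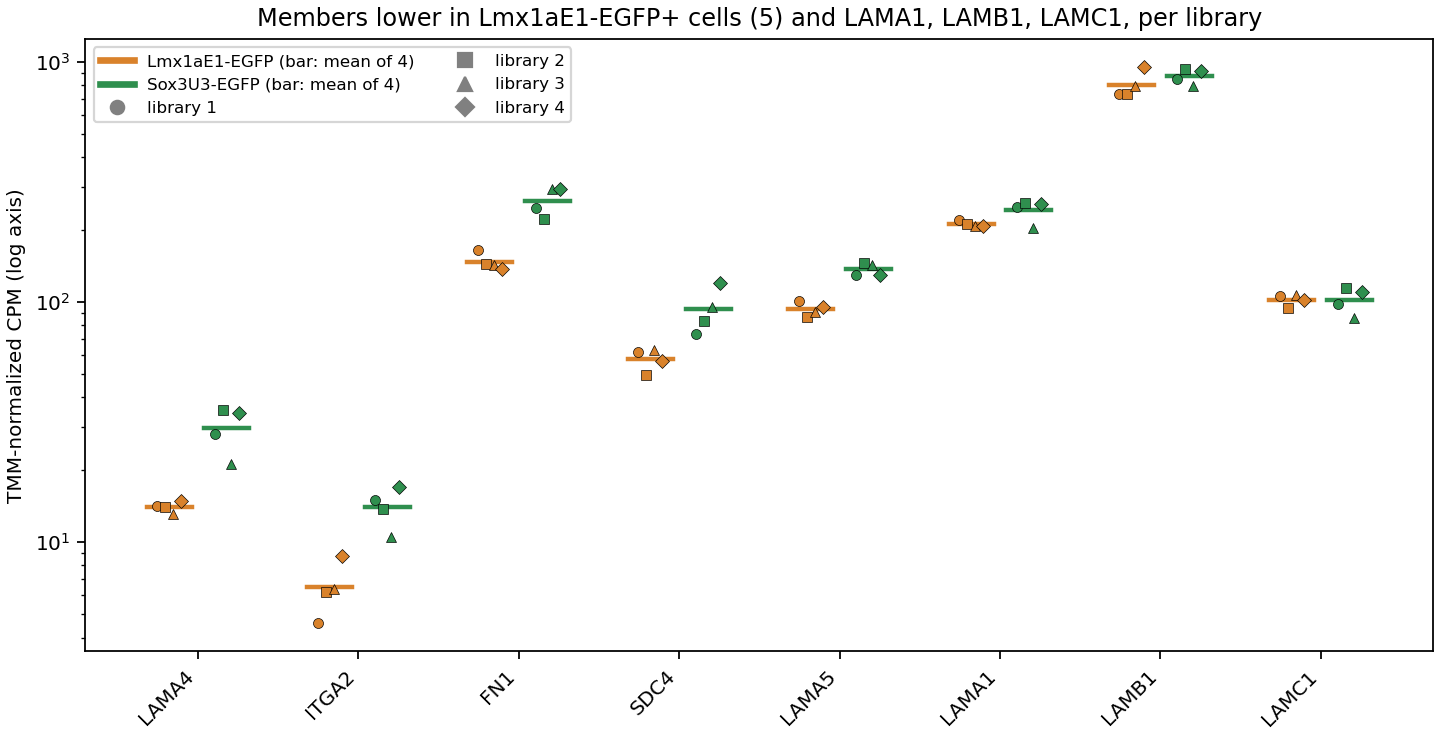
CPM per library (log axis) of the 5 members lower in Lmx1aE1-EGFP+ cells and of the laminin-111 chains LAMA1, LAMB1 and LAMC1. Marker shapes give the library number and horizontal bars the mean of 4. For LAMA4, ITGA2, FN1, SDC4 and LAMA5 every orange point lies under every green one, whereas the laminin-111 chains overlap.

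Of perlecan, agrin and the receptor dystroglycan, 1 of 3 passed the threshold. HSPG2, which encodes perlecan, had 187, 171, 185 and 173 CPM in Lmx1aE1-EGFP, against 129.9, 132, 115 and 123 CPM in Sox3U3-EGFP. Each group was narrow and they did not overlap, at a log2 fold change of 0.52 (standard error 0.09, edgeR adjusted p = 0.000778). AGRN (agrin) averaged 220.4 ± 11.3 CPM in Lmx1aE1-EGFP, against 208 ± 12.5 CPM in Sox3U3-EGFP, and DAG1 (dystroglycan) 11.5 ± 1.69 CPM and 13.6 ± 3.44 CPM (SD, n = 4 each), with log2 fold changes of 0.08 and -0.24 that did not pass. NID1 (nidogen) had 79.1, 61.2, 81.9 and 128 CPM in Lmx1aE1-EGFP, against 79.6, 86.3, 46.8 and 68.8 CPM in Sox3U3-EGFP. It was widely spread within both groups (log2 fold change 0.32, standard error 0.24, edgeR adjusted p = 0.376).

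Syndecans and glypicans carry heparan sulfate at the cell surface, syndecans through a membrane-spanning protein and glypicans through a lipid anchor, and both bind growth factors as well as matrix. SDC3 (ENSGALG00000035184), the syndecan best known from neural tissue and neural crest, had 117, 111, 105 and 112 CPM in Lmx1aE1-EGFP, against 40.8, 35.5, 41.1 and 31.5 CPM in Sox3U3-EGFP. It was 2.98-fold higher with no overlap, at a log2 fold change of 1.58 (standard error 0.12, edgeR adjusted p = 1.24e-07). SDC2, a mesenchymal syndecan, had 29.6, 30.3, 26.3 and 14.3 CPM in Lmx1aE1-EGFP, against 9.34, 13.9, 16.4 and 13.9 CPM in Sox3U3-EGFP. Lmx1aE1-EGFP library 4 lay among the Sox3U3-EGFP libraries (log2 fold change 0.91, standard error 0.23, edgeR adjusted p = 0.00995), and the call was lost within the 4 deeper libraries (0.84, edgeR adjusted p = 0.0630, where the other alternatives went down to 0.000936).

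SDC4, a syndecan of focal adhesions, was lower, with 62.1, 49.7, 63.2 and 56.8 CPM in Lmx1aE1-EGFP, against 73.7, 83.5, 95.4 and 119.5 CPM in Sox3U3-EGFP. The groups did not overlap (log2 fold change -0.68, standard error 0.14, edgeR adjusted p = 0.00254), but the difference was -0.36 within the deeper libraries (edgeR adjusted p = 0.150, where the other alternatives went down to 0.000531), and Sox3U3-EGFP library 4 held the highest value. SDC1, the main syndecan of epithelia, averaged 73.0 ± 12.1 CPM in Lmx1aE1-EGFP, against 76.7 ± 7.57 CPM in Sox3U3-EGFP (SD, n = 4 each; log2 fold change -0.07, standard error 0.13). Thus SDC3 and SDC2 were higher, SDC4 was lower, and SDC1 did not pass the threshold.

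GPC4 had 107, 119.7, 109 and 73.4 CPM in Lmx1aE1-EGFP, against 41.2, 41.9, 53.2 and 41.3 CPM in Sox3U3-EGFP. All 4 Lmx1aE1-EGFP libraries were higher, with library 4 the lowest of them (log2 fold change 1.20, standard error 0.15, edgeR adjusted p = 2.54e-05). GPC1 had 106, 91.5, 97.7 and 78.5 CPM in Lmx1aE1-EGFP, against 60.9, 62.0, 58.2 and 52.7 CPM in Sox3U3-EGFP, without overlap (log2 fold change 0.68, standard error 0.12, edgeR adjusted p = 0.000606). GPC3, the neighbour of GPC4 in the RefSeq gene order, had 22.0, 22.1, 19.2 and 16.1 CPM in Lmx1aE1-EGFP, against 43.5, 26.0, 20.2 and 25.4 CPM in Sox3U3-EGFP. Its groups overlapped and it did not pass (log2 fold change -0.56, standard error 0.21, edgeR adjusted p = 0.0665), nor did GPC5 (-0.32, standard error 0.20). GPC6 held 3 to 24 counts a library and was not tested.

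**Figure D3:**
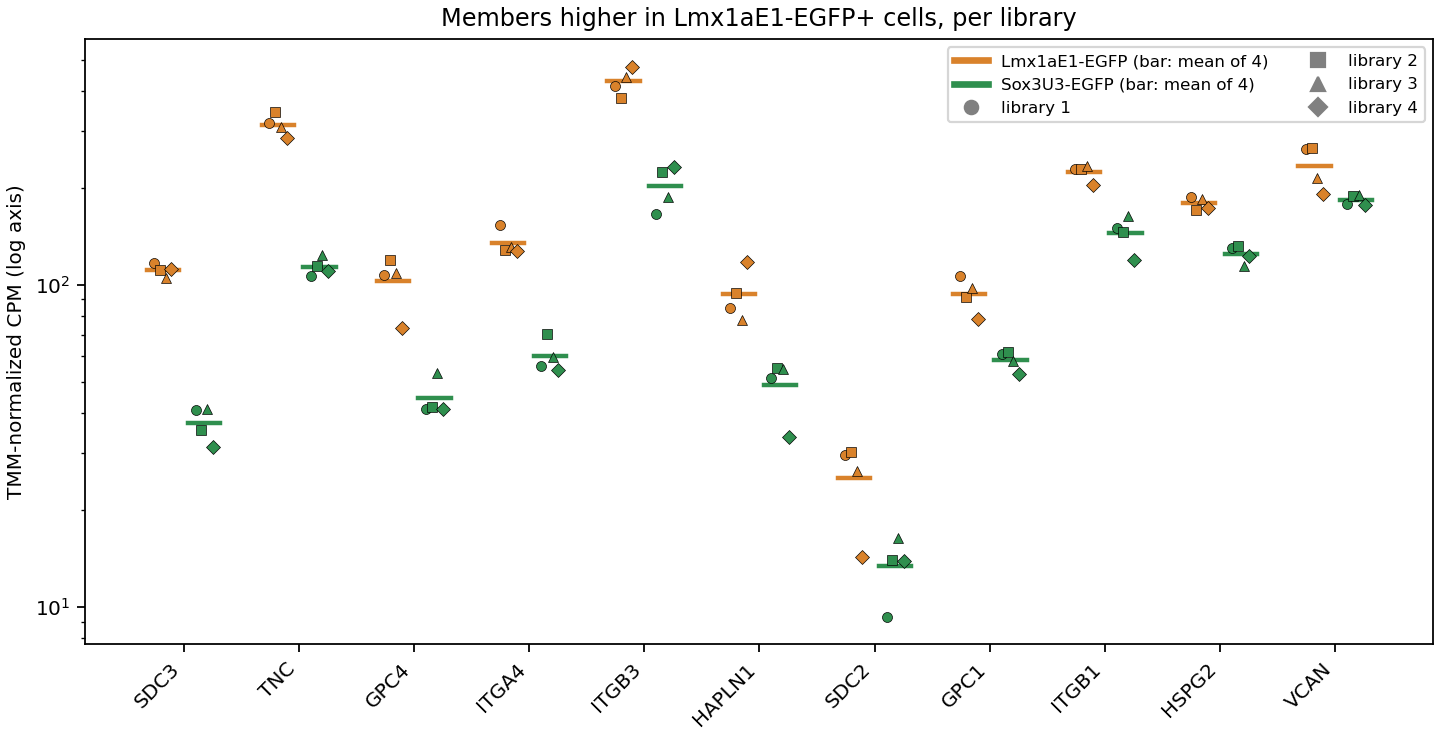
CPM per library (log axis) of the 11 members higher in Lmx1aE1-EGFP+ cells, in order of fold change. Marker shapes give the library number and horizontal bars the mean of 4. The groups are separate for all but SDC2, in which Lmx1aE1-EGFP library 4 (14.3 CPM) lies among the Sox3U3-EGFP libraries (9.34 to 16.4 CPM).

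The interstitial matrix showed differences in opposite directions. TNC (ENSGALG00000039990), which encodes the anti-adhesive glycoprotein tenascin-C of neural crest pathways, had 317, 344, 309 and 286 CPM in Lmx1aE1-EGFP, against 106, 114, 124 and 110.0 CPM in Sox3U3-EGFP. The lowest Lmx1aE1-EGFP library was over 2-fold above the highest Sox3U3-EGFP library, at a log2 fold change of 1.47 (standard error 0.10, edgeR adjusted p = 2.86e-08), just under the fold threshold of 1.5. FN1 (ENSGALG00000003578), fibronectin, had 164, 144, 142 and 138 CPM in Lmx1aE1-EGFP, against 245, 220.3, 294 and 294 CPM in Sox3U3-EGFP. It was lower in all 4 Lmx1aE1-EGFP libraries (log2 fold change -0.84, standard error 0.11, edgeR adjusted p = 4.42e-05). SPARC, a collagen-binding matrix protein, averaged 799 ± 49.5 CPM in Lmx1aE1-EGFP, against 866 ± 87.9 CPM in Sox3U3-EGFP (SD, n = 4 each; log2 fold change -0.12, standard error 0.09, edgeR adjusted p = 0.388).

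Versican and the link proteins join to hyaluronan. HAPLN1 had 85.0, 94.0, 77.9 and 117 CPM in Lmx1aE1-EGFP, against 51.3, 55.2, 54.9 and 33.7 CPM in Sox3U3-EGFP, and the groups were separate (log2 fold change 0.94, standard error 0.16, edgeR adjusted p = 0.000606). VCAN, versican, had 264, 265, 215 and 191 CPM in Lmx1aE1-EGFP, against 179, 189, 190.3 and 177 CPM in Sox3U3-EGFP. Libraries 3 and 4 of Lmx1aE1-EGFP lay near the Sox3U3-EGFP range (log2 fold change 0.35, standard error 0.11, edgeR adjusted p = 0.0314), and this adjusted p was the highest of the 16 members called. Within the 4 deeper libraries the log2 fold change was 0.17 (edgeR adjusted p = 0.548), with library size alone as the scale the adjusted p was 0.0685, and the call was also lost without Lmx1aE1-EGFP library 1 or 2 or Sox3U3-EGFP library 1 or 4 (edgeR adjusted p of 0.113, 0.109, 0.0736 and 0.0574). The lowest adjusted p over its alternatives was 0.00434, from edgeR without Lmx1aE1-EGFP library 4. HAPLN2, HAPLN3 and HAPLN4 had log2 fold changes of 0.48, -0.08 and -0.10 and did not pass, and HAPLN4 held 1 to 27 counts a library.

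None of the 4 fibulins, which bridge basement membranes and elastic fibres, passed the threshold. FBLN2 had 120.1, 118, 161 and 207 CPM in Lmx1aE1-EGFP, against 261, 303, 165 and 199.8 CPM in Sox3U3-EGFP. Its spread within groups was as wide as the difference between them (log2 fold change -0.61, standard error 0.23, edgeR adjusted p = 0.0909), although it passed with DESeq2 (adjusted p = 0.0245) and limma-voom (0.00321), within the deeper (edgeR adjusted p = 0.0244) and within the shallower libraries (0.0145), without Lmx1aE1-EGFP library 4 (0.0275) and without Sox3U3-EGFP library 3 (0.0349), over a range of 0.00321 to 0.220 for all alternatives. FBLN7 and FBLN1 had log2 fold changes of -0.54 and -0.08. FBLN5 had 6.81 CPM in Sox3U3-EGFP library 2 and at most 3.41 CPM in the other 7 libraries (log2 fold change 0.06, standard error 0.54).

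Ratios of counts within a library do not depend on the scaling between libraries, and only their difference between groups can be read, since gene length enters the level. The log2 ratio of LAMA5 to LAMA1 was -1.29 to -1.12 in Lmx1aE1-EGFP and -0.98 to -0.50 in Sox3U3-EGFP, a difference of the means of -0.37. That of FN1 to LAMC1 was 0.41 to 0.63 in Lmx1aE1-EGFP and 0.95 to 1.78 in Sox3U3-EGFP (difference -0.85). For HAPLN1 to VCAN it was -1.64 to -0.70 in Lmx1aE1-EGFP and -2.40 to -1.77 in Sox3U3-EGFP (difference 0.62). The groups did not overlap for these 3 ratios, so that relative to LAMC1 fibronectin was lower, relative to LAMA1 LAMA5 was lower and relative to VCAN HAPLN1 was higher in every Lmx1aE1-EGFP library. The ratios of LAMB2 to LAMB1, ITGA3 to ITGA6 and SDC3 to SDC2 overlapped between the groups. The ratios are given as descriptions, with no test.

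**Figure D4:**
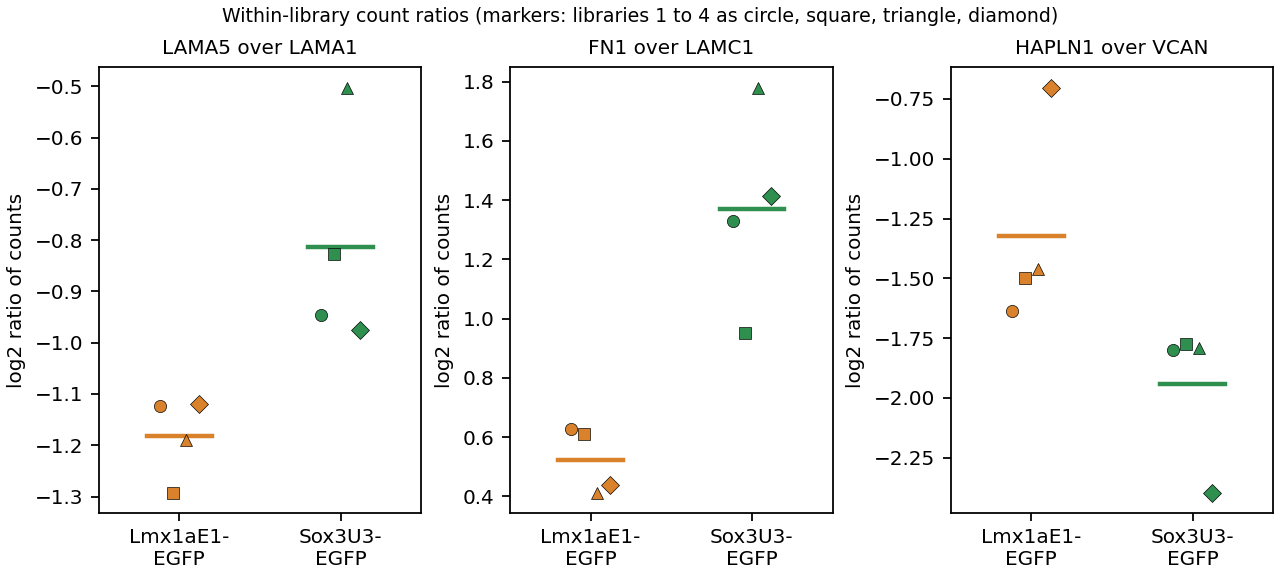
Log2 ratio of counts within each library for LAMA5 over LAMA1, FN1 over LAMC1 and HAPLN1 over VCAN, with the mean of 4 as a bar. The groups are separate in each panel, with Sox3U3-EGFP library 3 apart in the first (-0.50). In the third, library 4 is apart in both groups, upward in Lmx1aE1-EGFP (-0.70) and downward in Sox3U3-EGFP (-2.40).

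Lists of other genes of cell-matrix adhesion are given beside the shares over all genes tested, 12.1% higher and 11.3% lower (median log2 fold change -0.05), and nothing is read from them about a list as a whole. Of 29 integrin adaptors (median 0.0450), 6 were higher, among them BCAR1, a scaffold of focal adhesions (log2 fold change 0.91, standard error 0.20), and 7 were lower, among them the epithelial kindlin FERMT1 (-1.30, standard error 0.17) and the epithelial tensin TNS4 (-1.32, standard error 0.19). FERMT1 averaged 15.9 ± 2.58 CPM in Lmx1aE1-EGFP, against 39.0 ± 7.30 CPM in Sox3U3-EGFP (SD, n = 4 each). Of 22 other basement membrane genes (median -0.19), 3 were higher and 5 were lower. COL4A1, a chain of the collagen IV network, averaged 127 ± 18.1 CPM in Lmx1aE1-EGFP, against 55.5 ± 4.87 CPM in Sox3U3-EGFP (log2 fold change 1.19, standard error 0.12, edgeR adjusted p = 4.36e-06). NTN4, a laminin-related netrin, was lower (-2.09, standard error 0.51) but had few counts, averaging 0.650 CPM in Lmx1aE1-EGFP, against 2.74 CPM in Sox3U3-EGFP.

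Among 23 tested heparan sulfate genes (median -0.15), 4 were higher and 4 were lower, against 12.1% and 11.3% of all genes. The higher ones included the sulfotransferase NDST3 (log2 fold change 1.83, standard error 0.24) and the chain polymerase EXT1 (1.07, standard error 0.16), and the lower ones the sulfatase SULF1 (-1.10, standard error 0.17) and the heparanase relative HPSE2 (-1.57, standard error 0.43). For dystroglycan, 1 of 14 glycosylation genes (median -0.0939) was higher and 2 were lower, shares near those of all genes, with LARGE2, which builds its laminin-binding glycan, at 30.0 ± 2.70 CPM in Lmx1aE1-EGFP, against 103 ± 17.3 CPM in Sox3U3-EGFP (SD, n = 4 each; log2 fold change -1.78, standard error 0.14, edgeR adjusted p = 1.64e-07). In the dystrophin complex 3 of 15 genes (median -0.12) were higher, including the sarcoglycan SGCE (log2 fold change 0.98), and none was lower.

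Of 35 tested matrix proteases and inhibitors (median 0.0921), 7 were higher and 9 were lower, again against 12.1% and 11.3% of all genes. The gelatinase MMP9 averaged 5.27 ± 2.09 CPM in Lmx1aE1-EGFP, against 39.3 ± 17.7 CPM in Sox3U3-EGFP (SD, n = 4 each; log2 fold change -2.83, standard error 0.34, edgeR adjusted p = 0.000174), and the tolloid protease TLL2 was lower as well (-2.17, standard error 0.22). The metalloprotease inhibitor TIMP2 averaged 24.4 ± 13.9 CPM and 4.80 ± 1.78 CPM in the same order (log2 fold change 2.33, standard error 0.43, edgeR adjusted p = 0.00354). Of 18 other matrix receptors (median -0.14) 2 were higher, the agrin receptor LRP4 (0.87) and the syndecan-binding scaffold CASK (0.81), and 4 were lower, including the tetraspanin CD82 (-1.78, standard error 0.15). Of 37 other interstitial matrix genes (median -0.11) 6 were higher, including POSTN (1.37, standard error 0.19), and 7 were lower, including VIT (-1.85, standard error 0.28).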

How the data were processed

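Reads of the 8 libraries were trimmed with Trim Galore, aligned to GalGal6 with STAR in the NF-core RNAseq pipeline and counted with featureCounts by the authors, who deposited raw counts per Ensembl gene, without normalization. The strand setting is not given in the sources used here, so counts of overlapping genes are uncertain.

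Genes with few counts were removed with filterByExpr, and TMM factors and a robust quasi-likelihood fit in edgeR 4.0.16 (R 4.3.3) followed, with group as the only term. Benjamini-Hochberg adjustment covered the 16861 genes tested, and a standard error is the fold change divided by the root of its F statistic. Library totals were 6559872 to 45183366 counts, and the smallest chi-square per degree of freedom over the 28 pairs of libraries was 3.60, so none was a repeat deposit within counting error. The biological coefficient of variation was 0.225. Each member was also compared by a two-sided exact permutation test of log2 CPM, with a small constant added to the CPM. Its smallest p, 0.0286, was reached by the members whose groups did not overlap. Every member could be named, and of each other list the 2 genes per direction with the largest fold change among those called with a mean of at least 1 CPM. Members and lists were chosen with earlier results of these data known. The test was tried on simulated data. The alternatives were RLE factors, library size only, other filters, DESeq2 1.42.0, limma-voom (limma 3.58.1), a replicate block, thinned libraries, the 4 deeper or 4 shallower libraries, and each library left out. No genome or sequence table was used, so no coordinates or sequences are given. Some genes that these rules would name are not reported here.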

Additional observations from a re-analysis of the deposited data

Results flagged for a closer look

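Among 96 groups of 4 libraries (48 members in each group), 10 had an extreme library whose gap to its neighbour, divided by the range, was above Dixon's critical value of 0.829, where chance gives about 1 in 20 groups (4.80 here). On the log2 CPM scale (prior count 2) the highest library stood apart for GPC4 in Sox3U3-EGFP library 3 (ratio 0.936), for ITGA4 in Lmx1aE1-EGFP library 1 (0.859) and for ITGA3 in the same library (0.852). The lowest stood apart for ITGA11 and ITGA7 in Lmx1aE1-EGFP library 2 (0.910 and 0.901), for ITGB1 in Lmx1aE1-EGFP library 4 (0.866), for HAPLN4 in Lmx1aE1-EGFP library 1 (0.860), for LAMA1 in Sox3U3-EGFP library 3 (0.857), for HAPLN1 in Sox3U3-EGFP library 4 (0.851) and for AGRN in Sox3U3-EGFP library 1 (0.987). Of the members past the adjusted p threshold, GPC4, ITGA4, ITGB1 and HAPLN1 kept that call with each library left out in turn.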

How the results depend on the processing

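Of the 16 members called, 13 were called under every alternative that tested them, and SDC2, SDC4 and VCAN were not. Replicate numbers did not pair the libraries. Same-numbered libraries had correlations of their deviations of -0.23 to 0.05, and among Lmx1aE1-EGFP libraries only library 3 correlated best with its own number. Between the groups, libraries of like depth (both deeper or both shallower) had correlations of -0.05 to 0.31. Libraries of unlike depth had -0.23 to 0.05. The source of this was not tested. With the replicate number as a block 10 members were higher and 5 lower, with VCAN lost and no other member's call changed. Members lower in Lmx1aE1-EGFP+ cells numbered 9 with limma-voom (FBLN2, FBLN7, GPC3 and ITGA7 added), and 5 to 8 with a library left out, where the 8 came without Sox3U3-EGFP library 3 (FBLN2, GPC3 and LAMB2 added). Higher members numbered 10 to 11 with a library left out. Members past both thresholds numbered 2 with limma-voom (TNC added), 3 with no filter (ITGB7 and TNC added), 7 with a log2 fold change beyond 1, and 1 to 2 with a library left out (2 without Lmx1aE1-EGFP library 4 or Sox3U3-EGFP library 3). Over all genes, 1308 were higher and 1068 lower among the 4 deeper libraries, 1155 and 1064 among the 4 shallower ones, and 1448 to 2035 and 1362 to 2056 with a library left out. Reversals were in members near 0 that passed no threshold. ITGA8 was -0.0154 with library size only, -0.00614 with limma-voom and -0.18 within the deeper libraries. FBLN5 was -0.45, HAPLN3 0.29 and HAPLN4 0.915 within the deeper libraries, and HAPLN4 was 0.17 and ITGB5 0.0609 with limma-voom. ITGB2 was 0.0120 with no filter and 0.0740 with the replicate block. ITGB6 was -0.14 and ITGA3 0.13 within the shallower libraries. LAMC1 was -0.0468 with library size only, -0.0262 with at least 10 counts in every library and -9.59e-05 after thinning. The cause was not tested. Leaving out a library gave log2 fold changes from -0.10 to 0.17 for ITGA8, -0.23 to 0.00824 for ITGB8, -0.20 to 0.00175 for SDC1, -0.24 to 1.10 for FBLN5, -0.13 to 0.21 for ITGB2, -0.13 to 0.0418 for ITGA6, -0.0507 to 0.29 for ITGB6, -0.13 to 0.0510 for ITGB5, -0.0577 to 0.0669 for LAMC1, -0.32 to 0.0488 for HAPLN3 and -0.22 to 0.24 for HAPLN4. Low counts limit HAPLN4, GPC6 and ITGB7.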
